A study of Mus musculus with 12 samples.

Results

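Transcript levels of 8 genes of the presynaptic vesicle release machinery were examined in mouse hippocampus with and without NONO. The genes are Syn1, Syn2, Syt1, Snap25, Stx1a, Vamp2, Cplx1 and Cplx2. They were chosen by name, and each was found by its symbol in the deposited tables, where 8 of 23329 gene symbols were used. Their 12 annotated transcripts are among 30383 in each library. All 8 genes passed the filter on low counts that left 14131 genes for testing.

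Hippocampal polyadenylated RNA came from adult C57BL/6 mice that were wild type (WT) or knockout for NONO (KO). Libraries are marked CT10 or CT22, an abbreviation left unexplained, and there are 3 libraries in each of the 4 combinations, 12 in all. No drug or other agent is named for any group, and the making of the knockout allele was not given in the sources used here. Whether each library is a different animal is not stated, so the spread behind every p-value is that between libraries and may be technical.

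Neurotransmitter is released when a synaptic vesicle fuses with the presynaptic membrane. Synapsins hold vesicles in a cluster near the release site, SNARE proteins on vesicle and plasma membrane zip together to drive fusion, complexins bind the assembled SNAREs, and synaptotagmin senses the calcium that enters with an action potential. In the hippocampus these proteins serve the mossy fibre, Schaffer collateral and interneuron synapses. NONO is a nuclear protein that binds RNA and DNA and is known for roles in transcription, splicing and circadian regulation.

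Library totals lay between 4435606 and 10911046 estimated counts. Nono had 1147 to 1814 counts in each WT library and 0 to 4 in each KO library, so no library went against its genotype label. By 14 clock genes, KO CT10 replicate 3 lay closer to the WT CT22 libraries than to the WT CT10 libraries (distance 0.955 against 2.29 on the log2 scale). KO CT22 replicate 1 lay closer to the WT CT10 libraries (0.698 against 1.91). Choroid plexus markers summed to between 96 CPM and 3916 CPM by library and were highest in replicate 3 of WT CT10, WT CT22 and KO CT22 and in replicate 1 of KO CT10. CPM is a gene's count divided by library size, with library sizes adjusted by TMM. All 9 CA1 pyramidal markers and 13 of 15 dentate granule markers were expressed highly enough to be tested, so hippocampal principal cells were represented. In bulk tissue, fewer cells of a type and less RNA per cell cannot be told apart. The results were also computed without the 2 KO libraries that the clock genes place with the other CT label.

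Of the 8 genes, 3 are listed with more than 1 transcript. The sequences show where their forms differ in the coding region, so that the forms compared by share can be told apart. They were read 5′ to 3′ from GENCODE M21 transcripts on GRCm38 (mm10), joined across exons. For Syn1 (chrX:20860511-20920918, minus strand), capitals mark the 38 bases at chrX:20861572-20861609 that the long form holds and the short form skips. For Syn2 (chr6:115134902-115282626, plus strand), capitals mark the first 36 bases after the part both forms share. The 13-exon form goes on in a new exon at chr6:115278101-115278136, and the 11-exon form goes on without a break at chr6:115274257-115274292. For Syt1 (chr10:108497650-109010975, minus strand), capitals mark 9 bases at chr10:108636665-108636673 that 1 of the 2 forms skips.
Syn1 long form: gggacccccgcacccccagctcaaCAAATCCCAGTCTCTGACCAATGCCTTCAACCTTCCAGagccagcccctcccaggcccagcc
Syn1 short form: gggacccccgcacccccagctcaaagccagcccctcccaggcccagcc
Syn2 13-exon form: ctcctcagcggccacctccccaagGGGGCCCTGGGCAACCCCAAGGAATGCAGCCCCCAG
Syn2 11-exon form: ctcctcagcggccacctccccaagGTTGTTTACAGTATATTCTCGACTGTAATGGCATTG
Syt1 with the 9-base stretch: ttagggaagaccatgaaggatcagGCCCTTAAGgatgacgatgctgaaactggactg
Syt1 without the 9-base stretch: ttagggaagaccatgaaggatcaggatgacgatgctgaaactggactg

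These differences change the encoded proteins. The Syn1 long and short forms code for 706 and 670 residues (synapsin Ia and Ib), and the Syn2 13-exon and 11-exon forms for 586 and 479 residues (synapsin IIa and IIb). The remaining Syt1 transcript, which also has the 9-base stretch, holds an extra exon of 80 bases at chr10:108993838-108993917, which is annotated as 5′ untranslated, so that it codes for the same 421 residues as the main form. The other 5 genes have 1 listed transcript each, and the known alternative exon forms of Snap25 were therefore not separated. Snap25 (chr2:136713450-136782428, plus strand) codes for 206 residues, Stx1a (chr5:135023572-135051099, plus) for 288, Vamp2 (chr11:69088528-69092381, plus) for 116, and Cplx1 (chr5:108518554-108550027, minus) and Cplx2 (chr13:54371349-54383917, plus) for 134 each.

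All 8 genes were strongly expressed in every library. On the TPM scale, which corrects for transcript length, Snap25 stood highest at 2488 ± 220 TPM (SD, n = 12), followed by Vamp2 at 1334 ± 63.6 and Cplx2 at 1018 ± 121. Syt1 at 753 ± 75.8 TPM and Cplx1 at 739 ± 45.9 were next. Syn2 (579 ± 54.9), Syn1 (517 ± 43.2) and Stx1a (153 ± 18.1) came last. Snap25 lay above Vamp2 in every library without overlap of their ranges, and Syn1 likewise lay above Stx1a. Syt1 and Cplx1 were not ordered, as Syt1 was the higher in 6 of 12 libraries. Cplx2 exceeded Syt1 in 11 of 12 libraries, with overlapping ranges.

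Close relatives of 5 of the 8 genes were lower in TPM. Snap25 exceeded Snap23, its widely expressed relative, by a median ratio of 234 over the 12 libraries. The ratio of Cplx2 to the retinal relative Cplx3 was 195, that of Syt1 to Syt2, the fast sensor of many hindbrain synapses, was 71, and that of Syn1 to Syn3 was 47.5. Vamp2 exceeded Vamp1 by 9.21.

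The main comparison asked whether the release genes differ between KO and WT hippocampus. No member passed the adjusted threshold of 0.05 in edgeR's quasi-likelihood test over both CT labels, against 0.0212% of all genes tested, and none did in DESeq2, against 0.13%. At an unadjusted p under 0.05 the count was also 0 of 8, against 6.35% of all genes, and 0 of 8 separated the 6 KO from the 6 WT libraries, against 0.446%. The 8 estimates ran from a log2 change of −0.05 for Cplx1 to 0.09 for Stx1a, with 4 above and 4 below 0 and a median of 0.01, against 0.01 for all genes tested. The authors' deposited table gives an adjusted p of 1 for each of the 8 genes and log2 ratios from −0.06 to 0.08.

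The intervals bound how large a difference these libraries leave room for. For Vamp2 the 95% interval of the change over both CT labels ran from −9.14% to 7.28%, and for Syn1 from −3.02% to 15.3%. Those of Cplx2 (−16.1% to 12.6%) and Stx1a (−6.59% to 21.4%) were the widest. The bounds of the other 4 genes lay between those extremes. Without the 2 KO libraries that clock genes misplace, the estimates ran from −0.13 for Snap25 and −0.12 for Cplx2 to 0.06 for Syt1 and Stx1a, and none passed.

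**Figure D1:**
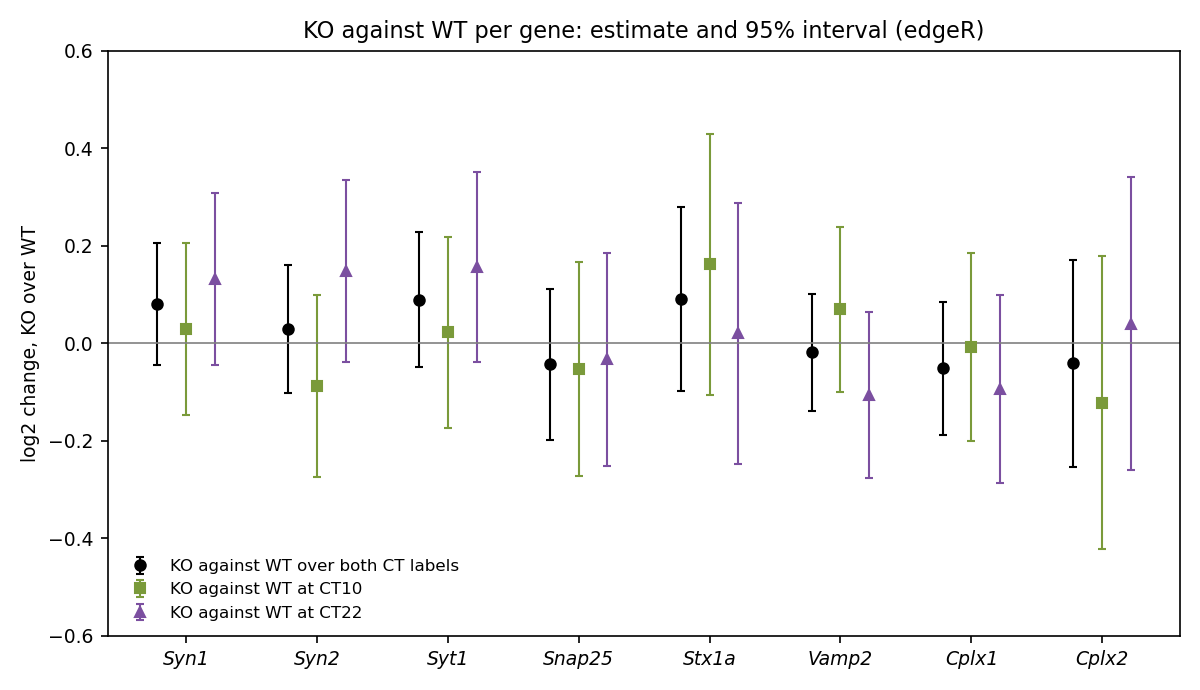
Estimated log2 change of KO over WT (y axis, no unit) for each of the 8 genes (x axis), with 95% intervals from edgeR, over both CT labels (black circles), at CT10 (green squares) and at CT22 (purple triangles). Every interval crosses 0, and the widest is that of Cplx2 at CT10.

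Syn1 encodes synapsin I, the most abundant phosphoprotein coating small synaptic vesicles. In WT at CT10 the 3 libraries gave 629, 624.7 and 697 CPM, and in KO at CT10 660, 655 and 675 CPM. At CT22 WT gave 675, 582 and 595 CPM and KO gave 722, 655 and 653 CPM. The KO values at CT10 lay inside the WT range, and at CT22 1 of 3 KO libraries lay above it. The log2 change was 0.03 at CT10 (SE 0.08, edgeR adjusted p = 1) and 0.13 at CT22 (SE 0.08, edgeR adjusted p = 0.558). The Syn1 annotation shares 22 exon bases with Araf on the opposite strand, and Timp1 lies within its introns at a mean of 0.288 CPM. Timp4 lies likewise within Syn2 at 34.2 CPM.

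Syn2 encodes synapsin II, which also clusters vesicles. Its values were 908, 869 and 1001 CPM in WT at CT10 and 839, 882 and 892 CPM in KO at CT10. At CT22 they were 821, 789 and 737 CPM in WT and 937, 777 and 885 CPM in KO. Within WT, every CT22 library lay below every CT10 library, while the KO groups overlapped. The difference between the CT labels in WT was −0.24 on the log2 scale (SE 0.09, unadjusted p = 0.0141 in edgeR, edgeR adjusted p = 0.722), and groups were as separate for 16.2% of all genes in that comparison. In the same WT contrast 12 of 13 dentate granule markers lay below 0 (median −0.40). Above 0 lay 9 of 9 CA1 (median 0.54) and 11 of 14 pan-neuronal markers (0.13). The part of these markers in the Syn2 difference was not tested. In KO the Syn2 difference was −0.01 (edgeR adjusted p = 0.997). The highest KO values at CT10 (892 CPM) and CT22 (937 CPM) came from the libraries that clock genes misplace. Without them, KO gave 839 and 882 CPM at CT10 and 777 and 885 CPM at CT22. The difference of the KO effect between CT22 and CT10 was 0.24 (95% interval −0.03 to 0.50, edgeR adjusted p = 0.737), so the CT contrast was not shown to depend on genotype. With the choroid-richest library of every group left out, the WT difference was −0.14.

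Syt1 encodes the calcium sensor for fast synchronous release at forebrain synapses. It stood at 1482, 1394 and 1419 CPM in WT and at 1471, 1347 and 1543 CPM in KO at CT10. At CT22 the WT libraries gave 1476, 1327 and 1159 CPM and the KO libraries 1466, 1393 and 1556 CPM. The groups overlapped at both CT labels, the lowest value being that of WT CT22 replicate 3. The change at CT22 was 0.16 (SE 0.09, edgeR adjusted p = 0.54), and 0.03 with the choroid-richest library of every group left out.

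**Figure D2:**
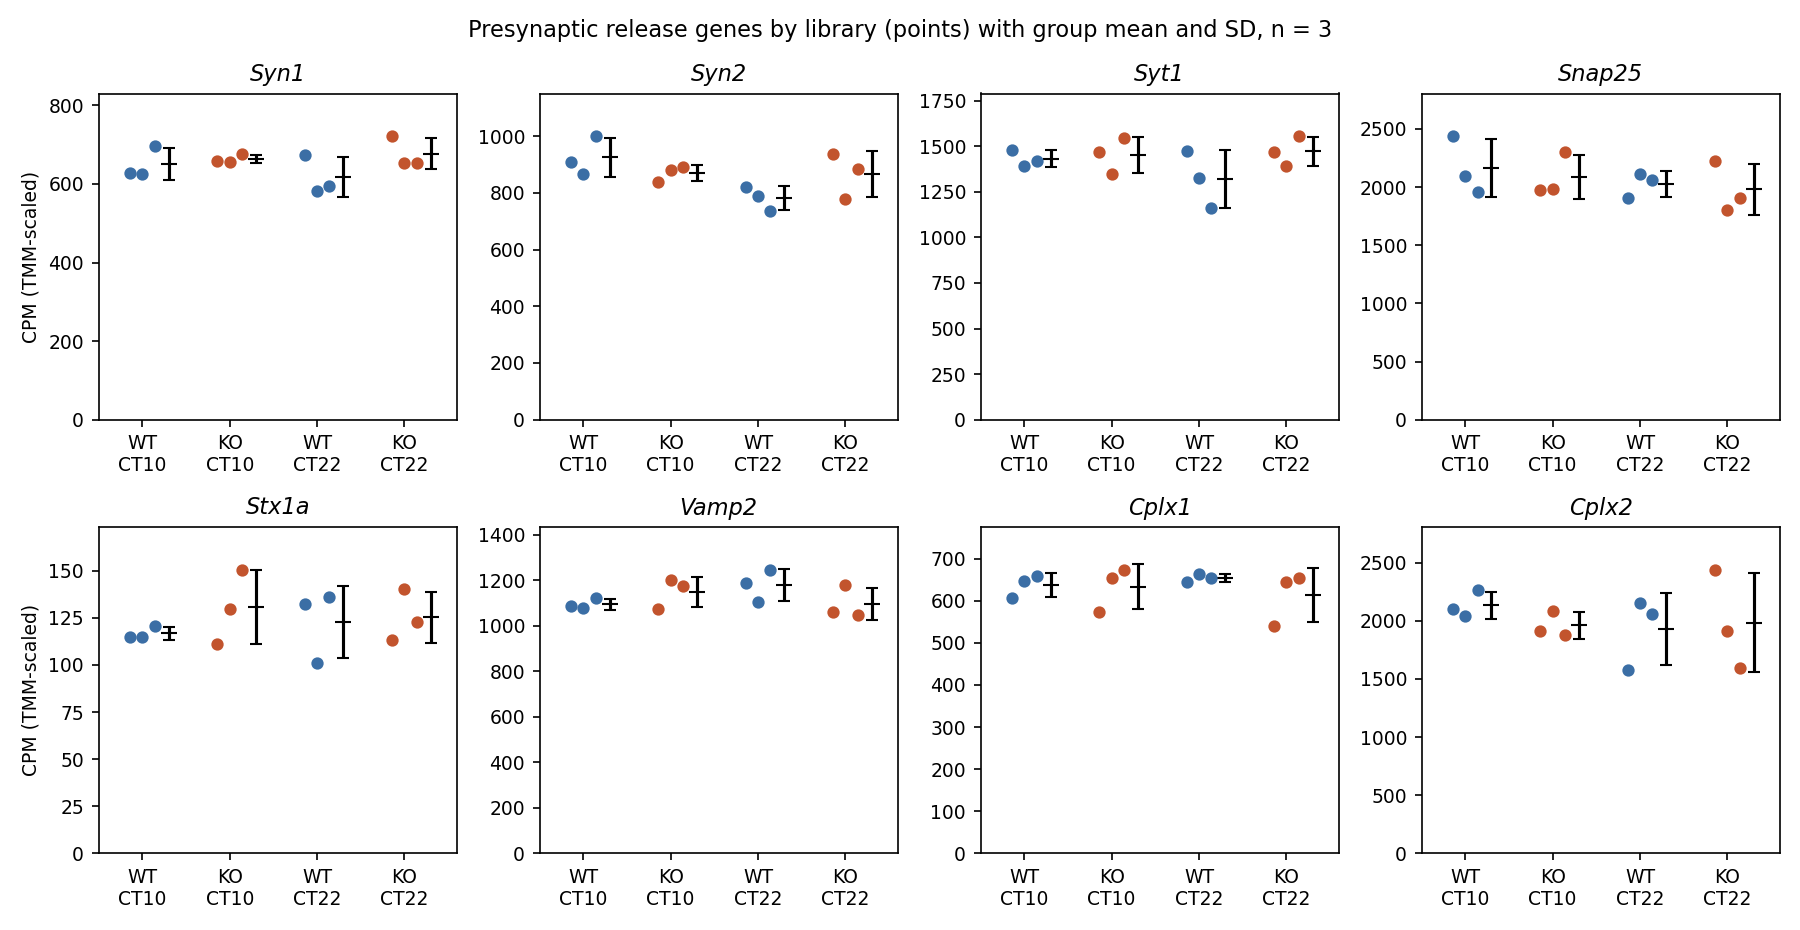
CPM (y axis, counts scaled by TMM-adjusted library size) of each gene in the 3 libraries of each group (x axis), WT in blue and KO in orange, with the group mean and SD in black beside the points. The WT and KO points overlap for every gene at both CT labels.

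Snap25 and Stx1a encode the plasma membrane SNAREs. Snap25 was read at 2439, 2096 and 1955 CPM in WT and 1971, 1981 and 2301 CPM in KO at CT10, and at 1904, 2112 and 2064 CPM in WT and 2224, 1807 and 1910 CPM in KO at CT22. At CT10 the KO values lay within the WT range. At CT22, KO libraries fell both above and below it. The log2 changes were −0.05 at CT10 and −0.03 at CT22 (SE 0.10 each, edgeR adjusted p = 1 and 0.923). Stx1a, the least abundant of the 8, gave 115, 115 and 121 CPM in WT and 111, 130 and 151 CPM in KO at CT10. At CT22 the values were 132, 101 and 136 CPM in WT and 113, 140 and 123 CPM in KO. The KO values at CT10 fell on both sides of the narrow WT range, with a log2 change of 0.16 (SE 0.13, edgeR adjusted p = 1), against 0.02 at CT22 (edgeR adjusted p = 0.965).

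Vamp2 encodes the vesicle SNARE that pairs with them. Its CT10 libraries gave 1086, 1078 and 1123 CPM in WT and 1074, 1201 and 1174 CPM in KO. Its CT22 libraries gave 1187, 1106 and 1248 CPM in WT and 1062, 1178 and 1050 CPM in KO. KO estimates lay above WT at CT10 (log2 change 0.07, SE 0.08) and below WT at CT22 (−0.11, SE 0.08), with 2 of 3 KO libraries above the WT range at CT10 and 2 of 3 below it at CT22. Those libraries include KO CT10 replicate 3 (1174 CPM) and KO CT22 replicate 1 (1062 CPM), which clock genes misplace. Without them the KO values were 1074 and 1201 CPM at CT10 and 1178 and 1050 CPM at CT22. The difference of the KO effect between CT22 and CT10, with all libraries, was −0.18 (95% interval −0.42 to 0.06, edgeR adjusted p = 0.739).

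Complexins bind the SNARE bundle and both clamp and promote fusion. Cplx1, which is typical of inhibitory and large, fast synapses, gave 606, 647 and 659 CPM in WT and 573, 655 and 675 CPM in KO at CT10. At CT22 it gave 646, 664 and 655 CPM in WT and 539, 646 and 655 CPM in KO. The lowest 2 KO values, in KO CT22 replicate 1 and KO CT10 replicate 1, lay below every WT library, while the other 4 lay within or above the WT range at their CT label. Cplx2, abundant in excitatory forebrain neurons, gave 2098, 2039 and 2266 CPM in WT and 1911, 2089 and 1881 CPM in KO at CT10. At CT22 it ranged most, from 1575 to 2157 CPM in WT and from 1598 to 2442 CPM in KO. The KO changes were −0.12 at CT10 and 0.04 at CT22 for Cplx2 (SE 0.14 each), and −0.01 and −0.09 for Cplx1 (SE 0.09 each). None passed the test (lowest edgeR adjusted p = 0.71, for Cplx1 at CT22).

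Within each CT label the count of members past the adjusted threshold was 0 of 8, against 0.00708% of all genes at CT10 and 0.0142% at CT22. DESeq2 also called 0 members, against 0.0164% and 0.273%. At an unadjusted p under 0.05 in edgeR the count was 0 of 8 at each label, against 3.09% and 10.9%. WT and KO libraries were separate without overlap for 0 of 8 members, against 10.3% of all genes at CT10 and 13.7% at CT22. For the difference of the KO effect, 0 members passed by either tool, as did 0% of all genes, and 0 of 8 had an unadjusted p under 0.05, against 6.09%. For CT22 against CT10 in WT, 0 members passed in edgeR or DESeq2, against 0% and 0.0219% of all genes, and 1 of 8, Syn2, had an unadjusted p under 0.05, against 6.76%. In KO, 0 members passed by either tool, as did 0% of all genes, 0 of 8 had an unadjusted p under 0.05, against 3.16%, and 0 of 8 separated the CT labels, against 7.96%.

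Library to library, the 8 genes were not equally steady. Within groups, Vamp2 varied least, with an SD of 0.08 on the log2 CPM scale (5.54%), smaller than for all but 16.1% of the 2392 genes over 100 CPM. Cplx2 varied most (SD 0.20, 15.2%), and 88.3% of those genes had a smaller SD. Stx1a followed with an SD of 0.18 (82.5%).

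The library extremes of Cplx2 and Syn1 lay with extremes of cell type markers. Dentate granule markers summed to 1578 CPM in KO CT22 replicate 1, the library highest in Cplx2 and lowest in Cplx1. They were lowest in WT CT22 replicate 1 (664 CPM) and KO CT22 replicate 3 (744 CPM), the libraries lowest in Cplx2 with 1575 and 1598 CPM. Of the 15 dentate markers 1 was at 0 in each library. In the other 9 libraries these markers spanned 785 to 1035 CPM. Oligodendrocyte markers were lowest in KO CT22 replicate 1 (3875 CPM) and WT CT10 replicate 3 (4557 CPM), which had the highest Syn1 values, and spanned 5893 to 8272 CPM elsewhere. By genotype, dentate granule markers ran from 664 to 1035 CPM with a median of 941 in WT, and from 744 to 1578 CPM with a median of 928 in KO. Other marker lists had extremes in the same libraries. KO CT22 replicate 1 was also lowest in pan-neuronal (7386 CPM), CA1 pyramidal (570.5 CPM) and interneuron markers (1156 CPM). WT CT22 replicate 1 was highest in CA1 pyramidal (1353 CPM) and pan-neuronal markers (10100 CPM). The part of any of these markers in the spread of Cplx2 and Syn1 was not tested. The ratio of Cplx2 to Cplx1 in TPM ranged from 1.06 in KO CT22 replicate 3 to 1.98 in KO CT22 replicate 1. Its means were 1.37 ± 0.16 in WT and 1.40 ± 0.31 in KO (SD, n = 6 each).

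**Figure D3:**
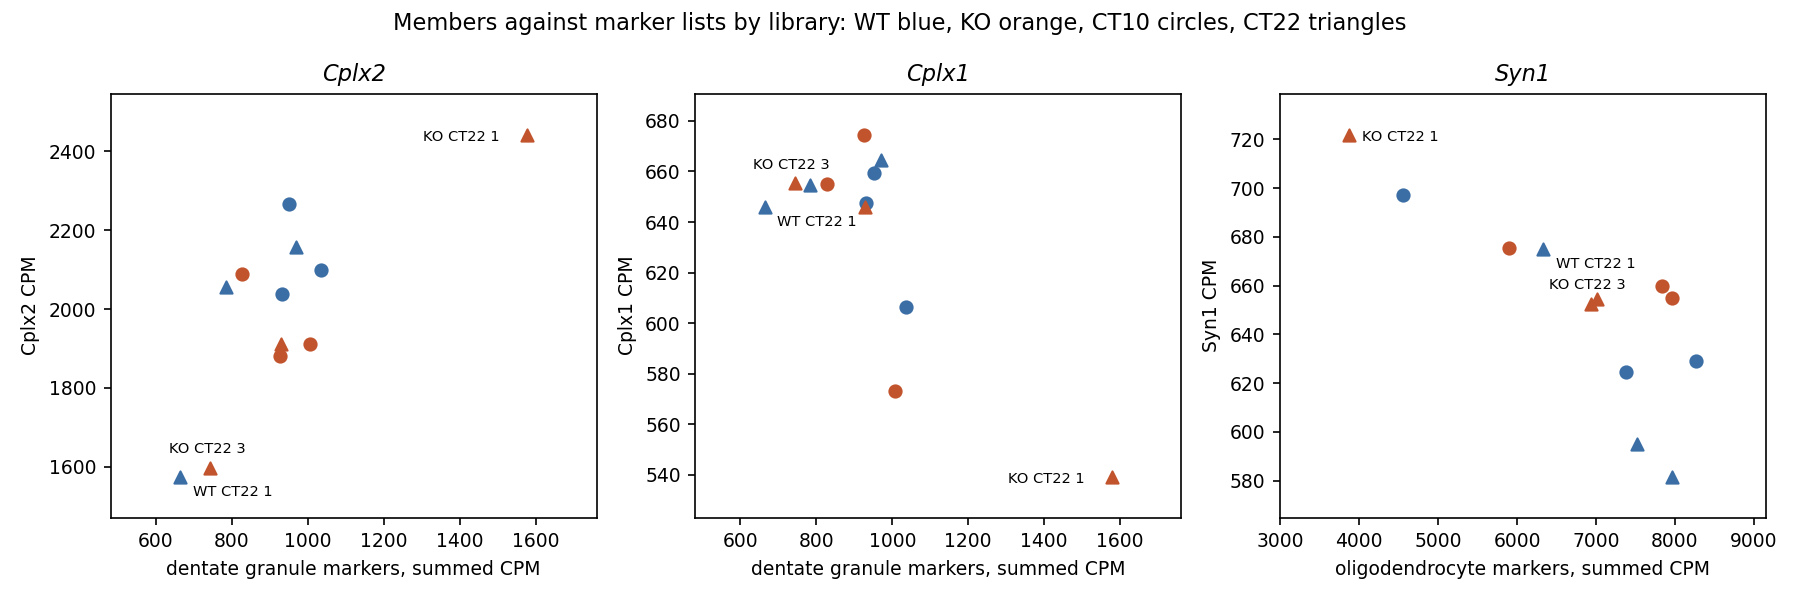
CPM of Cplx2, Cplx1 and Syn1 (y axes) against the summed CPM of dentate granule or oligodendrocyte markers (x axes), 1 point per library, WT in blue and KO in orange, CT10 as circles and CT22 as triangles. KO CT22 replicate 1 lies at an end of all 3 panels, with 2442 CPM of Cplx2, 539 CPM of Cplx1 and 722 CPM of Syn1.

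Some members varied together over the 12 libraries, given here as a description with n = 12 that includes library composition. Pearson's r of log2 CPM was 0.72 for Stx1a with Vamp2 and 0.68 for Syn1 with Syn2, and lowest for Syt1 with Vamp2 at −0.58. The genes most like each member over the libraries were Rab40b (r = 0.96) and Camk2b (0.95) for Cplx2, Ap3b2 (0.96) and Apbb1 (0.93) for Vamp2, and Mapk10 (0.95) and Ube2w (0.91) for Snap25. For Syt1 they were Caprin1 (0.94) and Dzip3 (0.94), for Stx1a Pi4k2a (0.93) and Il34 (0.88), and for Syn2 6330545A04Rik and Nat15 (0.90). For Cplx1 they were Lrpap1 (0.90) and Oprl1 (0.87), and for Syn1 Sh3rf3 (0.89) and Zc3hav1l (0.88).

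Among the members' transcript shares, that of 1 Syt1 form had the lowest p between the genotypes. The Syt1 transcript with the extra 5′ untranslated exon made up 5.37%, 4.82% and 4.95% of Syt1 counts in WT at CT10 and 7.87%, 7.16% and 6.36% in KO at CT10. At CT22 it made up 4.87%, 3.84% and 2.90% in WT and 5.39%, 7.61% and 6.44% in KO. Each KO library lay above each WT library at CT10 and at CT22, where 8.86% and 10.3% of all shares tested in the files separated the genotypes. Over both labels the shares were also separate, but only by the gap between 5.37% in WT CT10 replicate 1 and 5.39% in KO CT22 replicate 1. On the deposited scale of percent of the gene these libraries stood in reverse order, at 5.46% and 5.38%, so that the genotypes overlapped there. The mean share was 4.46% ± 0.92 in WT and 6.80% ± 0.92 in KO (SD, n = 6 each), a difference of 2.35 percentage points.

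The two-sided exact permutation test of this difference gave p = 0.00216, the smallest that its 924 arrangements can give. Adjusted over all 5079 transcript shares tested in the files, p was 0.825, and 0.256% of those shares, 13 in number, separated KO from WT over both labels. The result is thus not past the adjusted threshold. No share could pass it here, as even the smallest possible p gave an adjusted p of 0.825. The adjusted value therefore cannot decide whether this share differs. The difference was 2.81 points without the 2 KO libraries that clock genes misplace (exact permutation p = 0.00476). It was 1.91 points with the choroid-richest library of every group left out (exact permutation p = 0.0286). Each p is the smallest that the arrangements left, 210 and 70, can give, so their rise does not measure a weaker difference.

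Tests on the transcript counts split. In CPM the Syt1 transcript with the extra exon stood at 62.3 ± 16.9 in WT and 99.1 ± 11.9 in KO (SD, n = 6 each), with 1 KO library (78.9 CPM) below the highest WT library (79.4 CPM), and a log2 change of 0.69 (SE 0.16, edgeR adjusted p = 0.592 over 18021 transcripts, of which 0.0222% passed). DESeq2 called it with an adjusted p of 0.00806, among the 0.567% of 19041 transcripts that it called. A test of transcript usage across all genes with several transcripts (edgeR's diffSpliceDGE) gave an adjusted p of 0.161, with 0% of 6607 transcripts passing. The deposited bounds on the estimate are wide beside the difference: in WT CT10 replicate 1 they span 3.62% to 7.47% of the gene, in KO CT22 replicate 1 3.72% to 7.09%.

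Over both CT labels, the genotypes overlapped for the other forms. The Syt1 form with the 9-base stretch took 60.5% ± 5.95 of Syt1 counts in WT and 61.4% ± 3.48 in KO, and the form without it 35.0% ± 6.27 and 31.8% ± 3.69 (exact permutation p = 0.76 and 0.314, n = 6 each). The Syn1 short form took 53.9% ± 2.69 in WT and 52.7% ± 2.10 in KO (exact permutation p = 0.424, n = 6 each), so both synapsin I forms were about equally abundant. Of Syn2, the 13-exon form took a mean of 18.5% ± 1.82 in WT, with libraries from 16.6% to 21.7%, and 16.4% ± 0.67 in KO, with libraries from 15.7% to 17.7%. Over both labels the genotypes overlapped, with the highest WT value in WT CT22 replicate 3. At CT22 they were separate for this form, with 17.1% to 21.7% in WT and 15.7% to 16.1% in KO, as for 10.3% of all shares tested. The Syn1 short form was separate at CT10, with 53.3% to 57.2% in WT and 49.2% to 52.8% in KO, as for 8.86% of all shares tested. It overlapped at CT22. Over both CT labels, the Syn2 difference of −2.07 percentage points had an exact permutation p of 0.0152, where 4.88% of all shares had one under 0.05. After adjustment over all 5079 shares it was 0.927, where no share could pass the threshold. Without the 2 KO libraries that clock genes misplace, the Syn2 difference was −2.04 points (exact permutation p = 0.0667). With the choroid-richest library of every group left out it was −0.97 points (exact permutation p = 0.143).

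**Figure D4:**
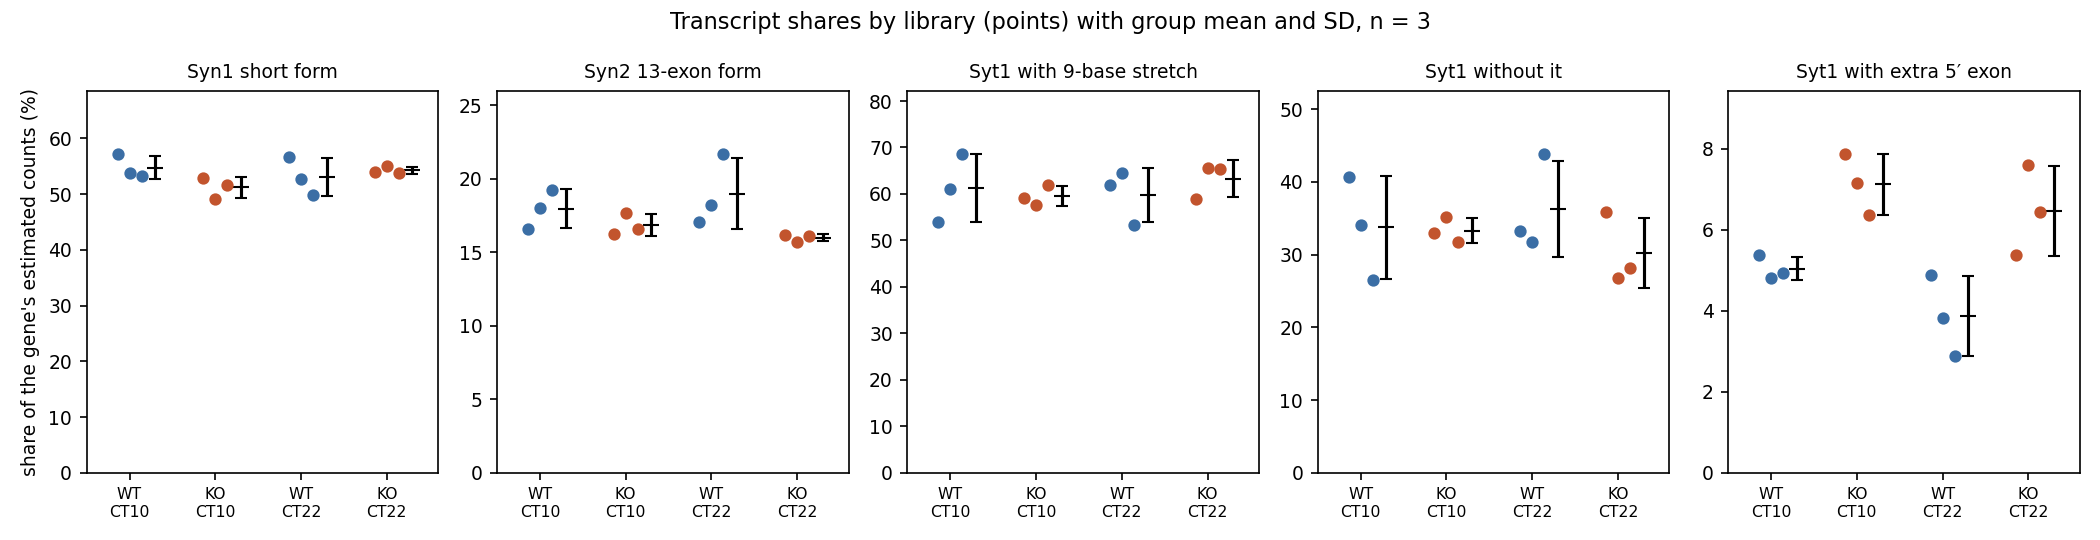
Share of each gene's estimated counts (y axis, percent) held by a transcript form, per library and group (x axis), WT in blue and KO in orange, with group mean and SD in black. In the panel of the Syt1 form with the extra 5′ exon, all KO points (5.39% to 7.87%) lie above all WT points (2.90% to 5.37%).

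The wider release machinery was read from a list of 93 further genes, of which 92 were tested. Over both CT labels 62 lay above 0 and 30 below, with a median log2 change of 0.04, against 0.01 for all genes tested, and 0 passed in edgeR or DESeq2. At an unadjusted p under 0.05 there was 1 gene, 1.09% of the list against 6.35% of all genes. It was Sv2c, a vesicle glycoprotein at only 6.60 to 19.5 CPM, with a log2 change of 0.51 (edgeR adjusted p = 0.597). Of the partners, the log2 change was 0.06 for the priming factor Unc13a, 0.00 for the SNARE-disassembling ATPase Nsf and −0.02 for the vesicle protein Syp (edgeR adjusted p from 0.92 to 0.999). Of the relatives, it was −0.06 for Vamp1, 0.17 for Syn3, 0.21 for Syt2, 0.21 for Snap23 and 0.32 for Cplx3, and none passed.

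At CT22, 13 of the 92 genes lay higher and 2 lower at an unadjusted p under 0.05 in edgeR, which is 16.3% against 10.9% of all genes, and 0 passed after adjustment. Without the 2 KO libraries that clock genes misplace, 4 of the 92 lay higher and 2 lower, against 1210 of 14228 genes in all. The counts were 11 and 3 with the choroid-richest library of every group left out, against 995 of 14160 genes in all. At CT22, 13 of 13 tested dentate granule markers lay above 0 in KO (median 0.57) and 8 of 9 CA1 markers below 0 (median −0.32). Also above 0 were 10 of 10 striatum (median 0.33), 9 of 10 thalamus and habenula (0.35), 13 of 15 meninges (0.89) and 16 of 16 choroid plexus markers (1.43). Below 0 were 12 of 13 oligodendrocyte (−0.22) and 11 of 13 microglia markers (−0.23). So were 12 of 14 pan-neuronal (−0.06) and 11 of 15 interneuron markers (−0.07). The part of these markers in the changes of the release genes was not tested. Of the 13 higher and 2 lower release genes, named after their values were seen, the highest were Sv2c (log2 change 0.91), the synaptotagmin Syt10 (0.86) and the active zone scaffold Pclo (0.54). Other active zone genes among them were Bsn (0.36), Rims1 (0.32) and Erc1 (0.26), and the vesicle recycling phosphatase Synj1 had 0.37. The 2 lower genes were Snap47 and Doc2b, at −0.22 each. The edgeR adjusted p of these named genes ran from 0.378 to 0.453. Sv2c and Syt10 were low, at 6.60 to 19.5 CPM and 3.21 to 9.92 CPM. Both were highest in KO CT22 replicate 1, which clock genes misplace. By role at CT22, the median was 0.09 for active zone genes and 0.13 for recycling genes, −0.06 for synaptotagmins, −0.04 for SNARE paralogs, 0.00 for fusion regulators and 0.02 for vesicle proteins. At CT10 the median of the 92 genes was 0.00, with 46 above 0 and 46 below. Cplx3, at only 3.19 to 11.3 CPM, was the 1 gene with an unadjusted p under 0.05 there, with a log2 change of 0.90 (edgeR adjusted p = 1).

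**Figure D5:**
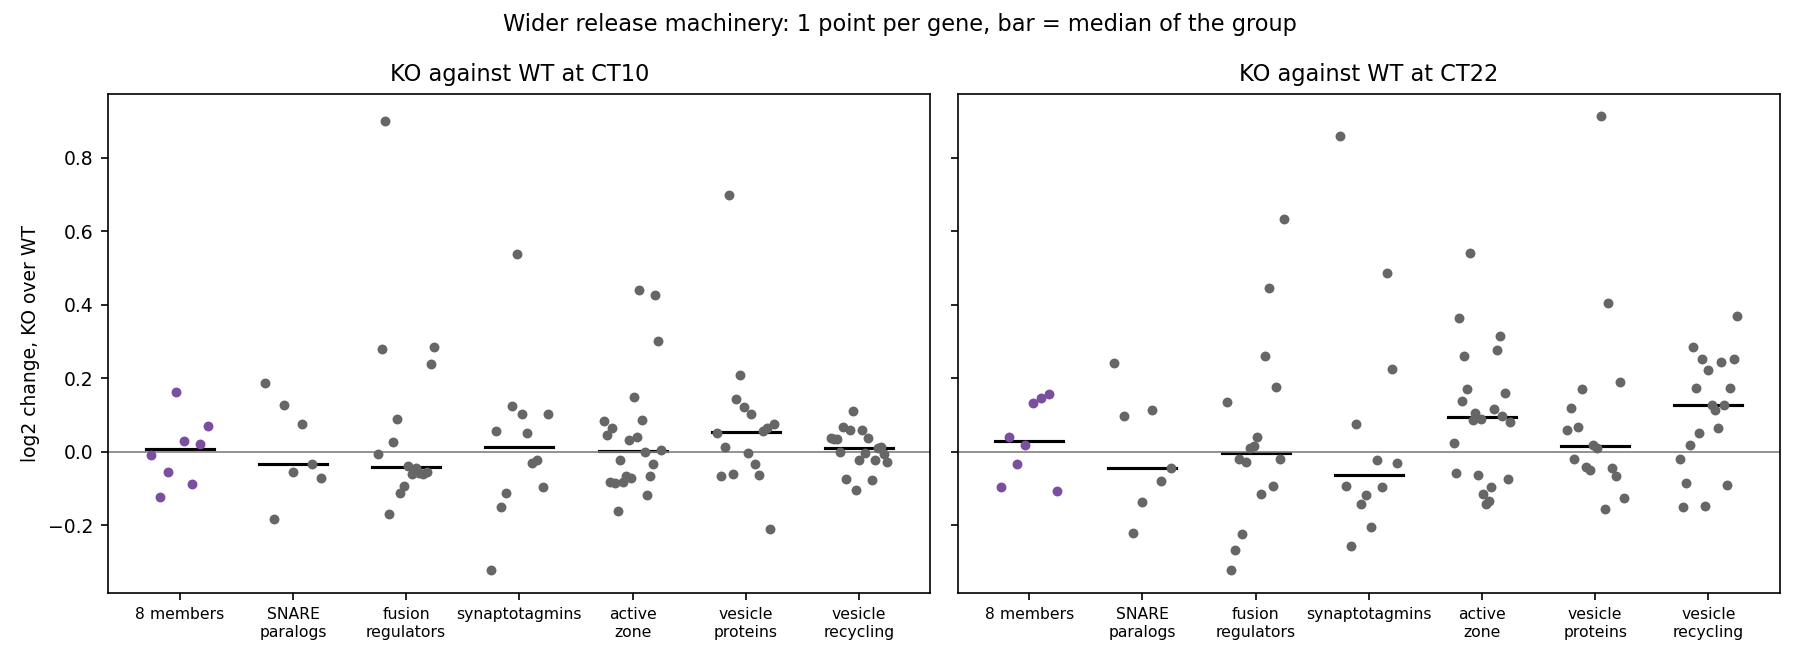
Log2 change of KO over WT (y axis) at CT10 and CT22 for the 8 genes (purple) and the other release genes (grey) by role (x axis), 1 point per gene with the median as a bar. The 8 genes lie between −0.12 and 0.16 at both labels, and the highest point at CT10 is Cplx3 at 0.90.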

How the data were processed

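The submitters' processing notes name TopHat 1.3.3, edgeR 3.0.6, RSEM 1.2.5, FastQC and the mm10 build, without their roles. Per the file headers, each library's deposited file gives estimated counts and TPM per transcript, and, as a percent of the gene, each transcript's share with its bounds. The authors' deposited table gives a log2 ratio, p-values and a normalised signal per library. Per the labels, kits were stranded; whether counting used strand was not given in the sources used here.

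Estimated counts were summed per gene symbol and rounded. edgeR 4.0.16 in R 4.3.3 was fitted to all 12 libraries (robust quasi-likelihood, TMM, filterByExpr with a minimum count of 10, 4 group means), with Benjamini-Hochberg adjustment over all 14131 genes or 18021 transcripts. DESeq2 1.42.0 was an alternative. Transcript shares of at least 5% on average were compared by an exact permutation test over libraries and adjusted over all 5079 in the files; the plan had named the members' shares alone. Procedures were tested on simulated data. The 8 genes, lists and alternatives were chosen with earlier results of these data known. Named genes are the 8 members, 8 listed relatives or partners, the 2 genes most correlated with each member, and list genes past the threshold; others are marked as chosen later. Some genes of the lists are not reported here.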

Additional observations from a re-analysis of the deposited data

Results flagged for a closer look

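In 3 of 26 sets of 6 libraries (a gene or transcript share in 1 genotype), a library stood apart from the other 5 by Dixon's test at 95%, which chance alone flags in about 1 of 20 sets. Syn1 in KO was 722 CPM in KO CT22 replicate 1, with the others between 652.5 and 675.4 CPM. Cplx1 in WT was 606.4 CPM in WT CT10 replicate 1, with the others between 645.8 and 664.4 CPM. Cplx2 in WT was 1575 CPM in WT CT22 replicate 1, with the others between 2039 and 2266 CPM.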

How the results depend on the processing

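The number of members past the threshold was 0 in each gene contrast under every alternative run, including without each library in turn. Over all genes, KO against WT over both CT labels passed 3 genes, against 21 with DESeq2, 10 without the filter on low counts, and 1 each with the choroid plexus covariate, without the libraries out of place by clock genes and without those highest in choroid plexus markers. Leaving out each library gave 1 to 8. At CT10, 1 gene passed, against 3 with DESeq2 and 4 with only the groups compared. At CT22, 2 genes passed, against 29 with DESeq2 and 1 each with only the groups compared and without the libraries out of place by clock genes or highest in choroid plexus markers, and 1 to 4 without each library. For CT22 against CT10 in WT the count was 0, against 4 with DESeq2, 2 with only the groups compared, 1 without the libraries out of place by clock genes, and 0 to 1 without each library. In KO it was 0, against 1 without the libraries out of place by clock genes. Among member transcripts 0 passed, against 1 with DESeq2. The cause of these shifts was not tested.

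Same-numbered libraries did not pair: the correlations of their deviations over 18 pairs ran from −0.237 to 0.328, and 4 of 12 libraries were closest to their own number. With a replicate block 1 gene passed over both CT labels and 1 at CT22, and 0 members did. Of 152 member log2 changes under alternatives over both CT labels, 9 changed sign, and the lowest adjusted p was 0.462. The Syt1 extra-exon share difference ran from 2.04 to 2.63 points without each library (exact permutation p from 0.00216 to 0.00433). The Syn2 13-exon difference ran from −2.44 to −1.43. KO CT22 replicate 2, with the fewest counts, carries the largest counting error. The leave-out values for shares and transcripts, those for the wider release genes and the transcript usage test were added after seeing the data.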

Other observations

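The gene described here was chosen after its values were seen. Slc17a7 (VGLUT1), the main vesicular glutamate transporter of hippocampal excitatory terminals, lay between 1948 and 1990 CPM in WT at CT10 and between 1489 and 1691 CPM in WT at CT22, without overlap, as for 16.2% of all genes (log2 change −0.30, edgeR adjusted p = 0.722). In this contrast 12 of 13 dentate granule markers lay below 0 (median −0.40). Above 0 lay 9 of 9 CA1 (median 0.54) and 11 of 14 pan-neuronal markers (0.13). The part of these markers in the Slc17a7 difference was not tested. In KO, Slc17a7 lay between 1825 and 1941 CPM at CT10 and between 1652 and 1972 CPM at CT22. The 1972 CPM is from KO CT22 replicate 1, which clock genes place with the WT CT10 libraries. Without it and KO CT10 replicate 3, the KO values were 1825 and 1941 CPM at CT10 and 1795 and 1652 CPM at CT22. The nearest values of these labels were thus 1825 and 1795 CPM. So few libraries cannot decide whether Slc17a7 differs between the CT labels in KO. The difference of the KO effect between CT22 and CT10 was 0.23 (edgeR adjusted p = 0.737).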
